A study of Mus musculus with 5 samples.

Results

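The genes described are 10 of the 23337 in the table and form the output of the Hippo pathway: the coactivators Yap1 and Wwtr1, the DNA-binding partners Tead1, Tead2, Tead3 and Tead4, and the target genes Ctgf, Cyr61, Ankrd1 and Amotl2. They were chosen by name, and all 10 had a row, Ctgf and Cyr61 under these older symbols (now Ccn2 and Ccn1). Polyadenylated RNA came from 129Sv mouse embryonic fibroblasts made immortal by SV40 T antigen, a viral oncoprotein that disables the tumour suppressors p53 and RB. The libraries fell into 2 groups, 2 libraries labelled KO (genotype SIRT3 -/-) and 3 libraries labelled WT (wild type), both grown under normal conditions and both carrying the T antigen. SIRT3 removes acetyl groups from mitochondrial proteins. The labels name neither the number of embryos or lines behind a genotype nor separate cultures, so p-values reflect only library-to-library spread, possibly technical, and a difference between genotypes cannot be told apart from a difference between 2 immortalized lines.

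In the Hippo pathway a kinase cascade phosphorylates YAP (encoded by Yap1) and its relative TAZ (encoded by Wwtr1) and keeps them in the cytoplasm, where they are degraded. When the cascade is quiet, as in spread cells on a stiff matrix, YAP and TAZ enter the nucleus, bind the TEAD proteins at enhancers and promoters and activate genes of growth and matrix. Control of YAP and TAZ is mostly on the protein, by phosphorylation and location, which RNA levels do not show.

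Sirt3, the targeted gene, had 200.4 and 216.8 normalized read counts (the deposited values, scaled for depth) in KO-labelled replicates 1 and 2, against 169.7, 149.4 and 118.4 in WT-labelled replicates 1, 2 and 3. It was thus higher under the label KO (log2 fold change 0.53, limma adjusted p = 0.0044), a call lost without KO-labelled replicate 2 (adjusted p = 0.0769) and relative to neighbouring genes (adjusted p = 0.230). If the allele gives no transcript this goes against the label, and the values do not separate exons, so every direction below is between libraries as labelled. Recovered reads came to 33473103 and 33579031 in the KO-labelled libraries and to between 37396488 and 41758681 in the WT-labelled ones. Rn45s, the ribosomal RNA precursor, made up 1.08% of WT-labelled replicate 1 and at most 0.701% of any other library. Of 15 fibroblast markers, 14 reached 1 RPKM (reads scaled by gene length and sequencing depth) in at least 1 library, with a summed level of 5178 to 5285 RPKM in KO-labelled and 6035 to 6242 RPKM in WT-labelled libraries. Lum stayed under 1 RPKM. Of the 14 fibroblast markers tested, 2 were higher (Col1a1 and Col1a2, by 0.38 and 0.58 on the log2 scale), 9 lower and 3 not called (limma). That is 78.6% called, against 65.3% of all genes tested (32.6% higher and 32.6% lower). The largest fall among the 14 markers was that of the receptor gene Pdgfra, at 5.02 RPKM in KO-labelled against 80.4 RPKM in WT-labelled libraries on average. Markers of epithelium, endothelium and blood cells were under 1 RPKM for 9, 8 and 8 of 10 genes each. They summed to 2.08 to 2.10, 18.8 to 19.2 and 5.35 to 5.55 RPKM in KO-labelled libraries, against 0.529 to 0.909, 14.1 to 15.9 and 5.85 to 6.34 RPKM in WT-labelled ones. Of those tested, 2 of 3, 2 of 6 and 1 of 3 were called higher and 0, 1 and 0 lower (limma). The endothelial sum joined opposed changes: Flt1 was at 14.0 against 5.06 RPKM and Egfl7 at 4.38 against 9.30 RPKM on average, KO-labelled against WT-labelled. The part of these markers in the results was not tested. Of 10 housekeeping genes 5 were called higher and 1 lower (limma), 60% called, near the 65.3% of all genes. Their median log2 fold change was 0.080. In bulk RNA, fewer cells of a kind and less RNA per cell cannot be told apart.

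The target genes were all higher in the KO-labelled libraries, while the genes of the coactivators and TEAD factors moved little and in both directions. All 10 genes passed the filter on low values. At an adjusted p under 0.05 (limma), 5 were higher and 3 lower in the KO-labelled libraries, and Yap1 and Tead2 did not pass. Such calls were common in this comparison: 65.3% of the 13062 genes tested were called, 32.6% as higher and 32.6% as lower. KO-labelled and WT-labelled values stood apart without overlap in 8 of the 10 genes, as in 75.4% of all genes tested. Calls of at least 2-fold were rarer. They held for 3 of the 10 genes, all higher (Ankrd1, Ctgf and Cyr61), where 6.57% of all genes tested were called higher by that much and 6.41% lower. The median log2 fold change was 0.21 for the 10 genes and -0.0023 for all genes tested. The median of the 10 was 0.13 without KO-labelled replicate 2, 0.29 without KO-labelled replicate 1 and 0.067 relative to neighbouring genes.

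**Figure D1:**
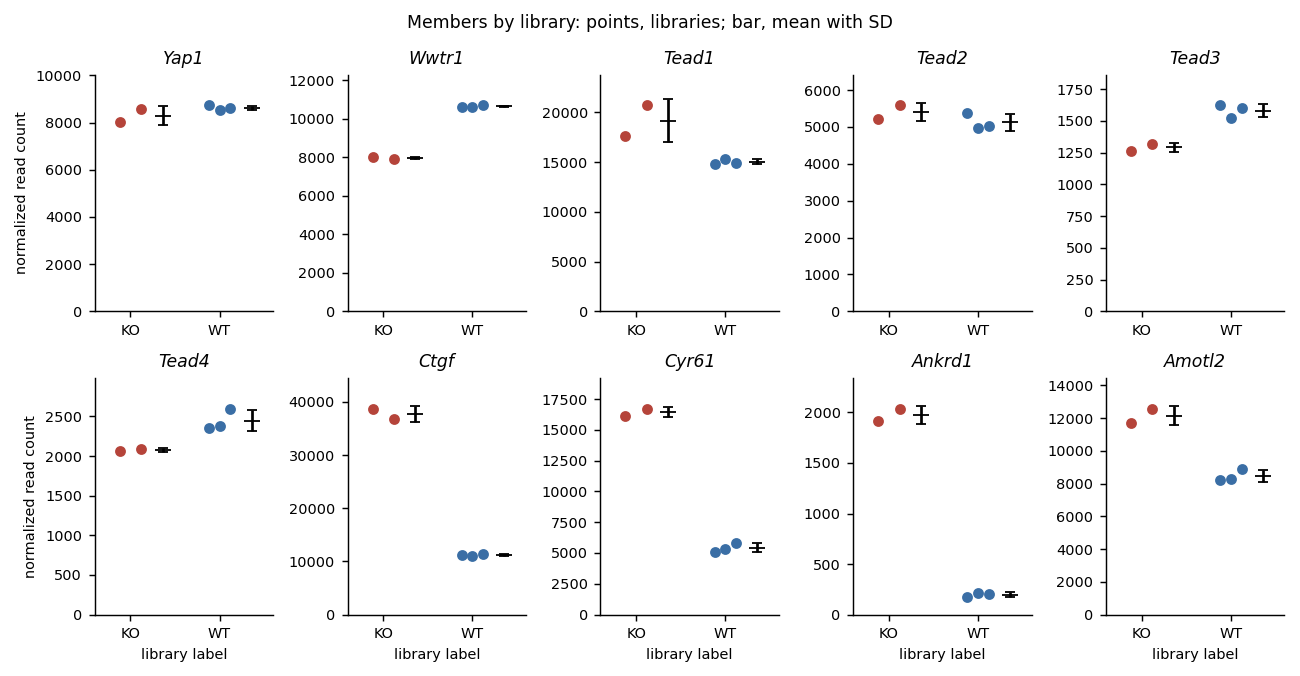
Normalized read count (vertical axis, from 0) of each of the 10 genes in the 2 KO-labelled (red) and 3 WT-labelled (blue) libraries; the bar beside each group is the mean with its SD. The KO-labelled points stand above all WT-labelled points for Tead1, Ctgf, Cyr61, Ankrd1 and Amotl2, below them for Wwtr1, Tead3 and Tead4, and overlap them for Yap1 and Tead2.

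Of the coactivator genes, Wwtr1 fell and Yap1 did not pass the test. Yap1 had 8009 and 8577 normalized read counts in KO-labelled replicates 1 and 2, against 8724, 8550 and 8606 in WT-labelled replicates 1, 2 and 3. KO-labelled replicate 1 was below all WT-labelled libraries and KO-labelled replicate 2 lay among them, so the groups overlapped. The log2 fold change of Yap1 was -0.058 (SE 0.039, 95% interval -0.14 to 0.023, limma adjusted p = 0.201). Without KO-labelled replicate 2 Yap1 was called lower (log2 fold change -0.11, limma adjusted p = 0.0239), a fit that rests on 1 KO-labelled library. Wwtr1 had 8009 and 7937 normalized read counts in the KO-labelled libraries, against 10621, 10632 and 10698 in the WT-labelled ones. Both KO-labelled libraries were below every WT-labelled library, and the spread within each group was small. Wwtr1 fell by 0.42 on the log2 scale (SE 0.036, limma adjusted p = 1.3e-09), and was 1.34-fold higher in WT. In KO-labelled replicate 1 Yap1 and Wwtr1 came to the same number of reads, 7273, while their values differed in the other 4 libraries. Yap1 lies at chr9:7931999-8004638 and Wwtr1 at chr3:57455644-57575910 (mm10), and Yap1 shares 116 exon bases with Gm20416, an annotated transcript on the opposite strand.

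Per unit of length, TAZ transcripts were slightly more abundant than YAP transcripts in the WT-labelled libraries and less abundant in the KO-labelled ones. Yap1 stood at 53.6 ± 2.11 RPKM in the KO-labelled (SD, n = 2) and 56.0 ± 0.635 RPKM in the WT-labelled libraries (SD, n = 3). Wwtr1 stood at 44.9 ± 0.700 RPKM in the KO-labelled and 60.3 ± 0.265 RPKM in the WT-labelled libraries. Yap1 made up 53.4% and 55.4% of the summed RPKM of both genes in the KO-labelled libraries, against 48.5%, 48.0% and 48.0% in the WT-labelled ones, a difference of 6.23 percentage points with no overlap. An exact two-sided permutation test over the 5 libraries gave p = 0.1, the smallest this design allows, and 0.125 after Benjamini-Hochberg adjustment over the 5 shares compared here. The summed level of the pair was 97.5 and 99.5 RPKM in the KO-labelled libraries, against 117, 116 and 116 RPKM in the WT-labelled ones.

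**Figure D2:**
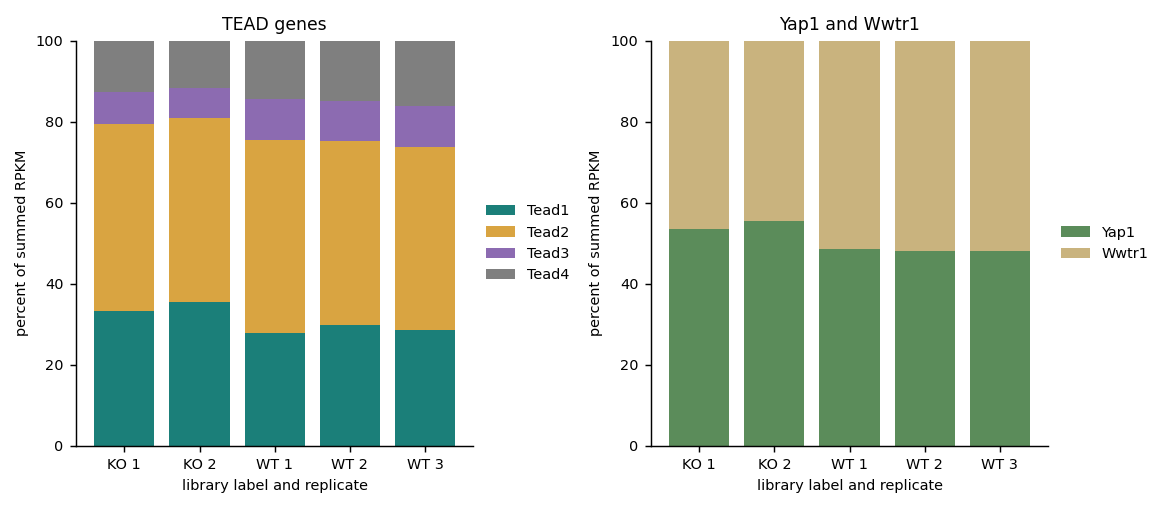
Share of each Tead gene in the summed RPKM of Tead1 to Tead4 (left) and of Yap1 and Wwtr1 in their sum (right), in percent, for each library. The Tead1 share is 33.2% and 35.6% in the KO-labelled libraries and at most 29.7% in the WT-labelled ones, and the Yap1 share lies above 50% in the KO-labelled libraries alone.

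Among the TEAD factor genes, which encode the DNA-binding part of the complex, Tead1 was higher, Tead3 and Tead4 were lower and Tead2 did not pass. Tead1 had 17643 and 20686 normalized read counts in KO-labelled replicates 1 and 2, against 14847, 15317 and 14918 in WT-labelled replicates 1, 2 and 3. The 2 KO-labelled libraries differed from each other more than for any other of the 10 genes (coefficient of variation 11.2%, against 1.69% among WT-labelled libraries), yet both were above every WT-labelled library. Tead1 was 1.27-fold higher (log2 fold change 0.35, SE 0.048, limma adjusted p = 2.1e-06), and the log2 fold change was 0.46 without KO-labelled replicate 1 and 0.23 without KO-labelled replicate 2. The gene lies at chr7:112679356-112906784 (mm10), where 35 of 44 tested genes within 5 Mb were called higher, against 32.6% of all genes. The median log2 fold change of the 44 was 0.67. Relative to that median Tead1 was lower, at a log2 fold change of -0.32 (limma adjusted p = 7.2e-06), so its direction holds between the lines but not against the genes around it.

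Tead3 had 1265 and 1318 normalized read counts in the KO-labelled libraries, against 1621, 1520 and 1599 in the WT-labelled ones. Tead4 had 2059 and 2095 in the KO-labelled libraries, against 2359, 2386 and 2600 in the WT-labelled ones. In both genes the groups stood apart, by less than in Wwtr1. The log2 fold changes were -0.29 (SE 0.054) for Tead3 and -0.24 (SE 0.050) for Tead4 (limma adjusted p = 8.0e-05 and 0.00032). Their neighbours within 5 Mb were mostly higher, with median log2 fold changes of 0.33 over 182 genes and 0.26 over 64 genes, and relative to these medians the differences were -0.62 and -0.50. Tead2, a paralog much studied in the early embryo, had 5229 and 5585 normalized read counts in the KO-labelled libraries, against 5388, 4970 and 5020 in the WT-labelled ones, with overlapping groups. Its log2 fold change was 0.077 (SE 0.044, 95% interval -0.015 to 0.17, limma adjusted p = 0.132), and 0.19 relative to its neighbours, where it passed (limma adjusted p = 0.0010). Tead2 lies at chr7:45215792-45233468, far from Tead1 on the same chromosome, Tead3 at chr17:28331671-28350805 and Tead4 at chr6:128227143-128300813.

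Tead2 was the most abundant TEAD transcript per unit of length in both lines. In the KO-labelled libraries the order was Tead2, Tead1, Tead4 and Tead3, at 68.9 ± 2.58, 51.8 ± 5.35, 18.2 ± 0.0553 and 11.6 ± 0.227 RPKM (SD, n = 2). In the WT-labelled libraries the order was the same, at 65.6 ± 2.98, 40.8 ± 0.637, 21.5 ± 1.17 and 14.2 ± 0.493 RPKM (SD, n = 3). No neighbours in either order came within their spread. Tead1 took 34.4% of the summed TEAD RPKM in KO-labelled against 28.7% in WT-labelled libraries, Tead4 12.1% against 15.2% and Tead3 7.71% against 10.01%, each without overlap between the groups (exact permutation p = 0.1 each, the smallest possible, and 0.125 adjusted over 5 shares). The Tead2 share was 45.8% in KO-labelled and 46.1% in WT-labelled libraries (exact permutation p = 0.9). The summed TEAD level was 145 and 156 RPKM in the KO-labelled libraries, against 145, 140 and 142 RPKM in the WT-labelled ones, so that KO-labelled replicate 1 lay within the WT-labelled range.

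The target genes carried the large differences. Ankrd1 encodes the cardiac ankyrin repeat protein, a nuclear and sarcomeric protein induced by stretch. Ctgf and Cyr61 encode secreted matricellular proteins of the CCN family that bind integrins, and both are standard readouts of YAP and TEAD activity, though TGF-beta and serum response factor also act on them. Amotl2 encodes an angiomotin, which binds YAP and holds it in the cytoplasm, and is itself a target that closes a negative feedback loop.

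The DNA just before annotated starts of these genes is shown for the letters that TEAD factors read. The TEAD DNA-binding domain recognizes the letters GGAATG, or CATTCC when read on the other strand. RefSeq windows on assembly GRCm38.p6 (mm10) gave the 250 bases before each annotated start for 7 of the 10 genes. Such a start can lie inside the gene, after its outermost end. Ctgf, Tead1 and Tead4 had no entry. Capitals mark each match to the element on either strand, and each sequence is read 5′ to 3′ on the strand of its gene. The whole windows of Ankrd1 (chr19:36119845-36120094) and Cyr61 (chr3:145649986-145650235), both on the minus strand, are followed by the 30 bases around the match of Amotl2, on the plus strand of chromosome 9.
Ankrd1: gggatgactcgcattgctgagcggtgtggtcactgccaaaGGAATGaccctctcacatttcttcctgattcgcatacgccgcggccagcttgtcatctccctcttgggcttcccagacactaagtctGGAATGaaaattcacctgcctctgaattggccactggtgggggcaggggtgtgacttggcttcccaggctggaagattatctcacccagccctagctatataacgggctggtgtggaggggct
Cyr61: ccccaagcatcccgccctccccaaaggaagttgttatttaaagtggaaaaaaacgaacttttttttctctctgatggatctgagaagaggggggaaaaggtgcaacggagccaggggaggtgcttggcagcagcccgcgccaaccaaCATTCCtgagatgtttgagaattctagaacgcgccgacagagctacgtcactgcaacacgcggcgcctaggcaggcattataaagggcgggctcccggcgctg
Amotl2: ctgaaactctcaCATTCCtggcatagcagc

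Ankrd1 held the element at 2 places, beginning 210 and 123 bases before the start, both in the orientation GGAATG. Cyr61 held it once, 103 bases before the start, and Amotl2 once, 65 bases before an annotated start, both as CATTCC followed by a T. The Amotl2 window (chr9:102717554-102717803) lies inside the gene, which begins at 102717091, so that match is not upstream of the whole gene. Among 32841 RefSeq windows of the same length, 12.6% held at least 1 match on either strand and 1.02% held at least 2. The element was not particular to genes that rose: Yap1, which did not pass, and Wwtr1, which fell, each held 1 as well, 141 bases before the start of Yap1 and, for the 2 annotated starts of Wwtr1, 170 and 136 bases before. Tead3, which also fell, held it in 2 of its 3 windows, of which that at chr17:28350601-28350850 lies mostly inside the gene. Single sites are shown for comparison for Yap1 and Wwtr1, both on the minus strand.
Yap1: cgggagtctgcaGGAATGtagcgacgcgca
Wwtr1: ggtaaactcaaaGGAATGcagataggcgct

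Of the 7 genes with a window, 6 held a match in at least 1 window, and Tead2 had none. The 12.6% above is a share of windows, not of genes. Counted by window, 8 of 10 held a match, where the 2 windows of Wwtr1 overlap and share 1 site. These matches describe letters in the reference genome, not binding in these cells.

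Ankrd1 showed the largest difference of the 10 genes. It had 1912 and 2038 normalized read counts in KO-labelled replicates 1 and 2 (1736 and 1833 reads), against 173.2, 214.7 and 203.5 in WT-labelled replicates 1, 2 and 3 (196, 217 and 220 reads). Every KO-labelled value was several times every WT-labelled one. Ankrd1 was 10.01-fold higher in the KO-labelled libraries (log2 fold change 3.32, SE 0.093, 95% interval 3.13 to 3.52, limma adjusted p = 8.0e-18), and ranked 105 of 13062 tested genes by log2 fold change. By RPKM it ranked 2844 of 23337 genes in KO-labelled and 9251 in WT-labelled libraries.

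The surroundings of Ankrd1 on chromosome 19 were shifted upward by far less than the gene itself. It lies at chr19:36111965-36119844, and the tested genes next to it, Rpp30 on one side and Pcgf5 on the other, had log2 fold changes of 0.96 and 0.79. Within 5 Mb, 27 of 48 tested genes were called higher and 14 lower, against 32.6% of all genes in each direction. The median of the 48 was 0.31 and their largest value 1.30, for Acta2, the smooth muscle actin gene. Relative to that median Ankrd1 stood at 3.02. Because Ankrd1 is a marker of heart and skeletal muscle, markers of those tissues were read beside it. Of 15, 14 were under 1 RPKM in every library, Myod1 was at 0 reads in all 5, and their summed level was 2.99 to 3.19 RPKM in KO-labelled against 1.30 to 1.58 RPKM in WT-labelled libraries. Ankrd1 alone stood at 30.2 ± 1.09 RPKM in KO-labelled (SD, n = 2) and 3.02 ± 0.326 RPKM in WT-labelled libraries (SD, n = 3). Most of the KO-labelled sum was the 1 marker above 1 RPKM, the cardiac troponin gene Tnnt2, at 2.29 RPKM in KO-labelled and 0.642 RPKM in WT-labelled libraries. Of the 4 muscle markers that passed the filter, Tnnt2 and Nkx2-5 were higher, Ttn was lower (log2 fold change -1.29) and Tnni3 was not called (limma). Nkx2-5 passed it only through the KO-labelled libraries, at 10 and 12 reads against 2, 2 and 4 in WT-labelled ones. Tnni3 passed it only through the WT-labelled libraries. The part of muscle transcripts in the Ankrd1 difference was not tested.

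Ctgf had 38754 and 36717 normalized read counts in the KO-labelled libraries, against 11170, 10983 and 11305 in the WT-labelled ones, and its log2 fold change was 1.76 (SE 0.037, 95% interval 1.68 to 1.84, limma adjusted p = 6.5e-20). Per length it was the most abundant of the 10 genes in both lines, at 424 ± 20.03 RPKM in KO-labelled (SD, n = 2) and 126 ± 1.95 RPKM in WT-labelled libraries (SD, n = 3), rank 69 and rank 429 of all 23337 genes. An annotated transcript on the opposite strand, Gm15270, shares 665 exon bases with Ctgf, and without a stated strand setting reads from those bases cannot be assigned to one strand.

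Cyr61 had 16139 and 16727 normalized read counts in the KO-labelled libraries, against 5103, 5303 and 5816 in the WT-labelled ones. It was 3.04-fold higher (log2 fold change 1.61, SE 0.046, 95% interval 1.51 to 1.70, limma adjusted p = 1.1e-17), with 218 ± 3.54 RPKM in KO-labelled and 72.2 ± 4.92 RPKM in WT-labelled libraries. The 2 matricellular genes lie on different chromosomes (Ctgf at chr10:24595442-24598683 and Cyr61 at chr3:145646971-145649985), and the median log2 fold change of tested genes within 5 Mb was -0.017 around Ctgf and 0.099 around Cyr61. Single neighbours ran from -4.92 (Vnn1) to 5.17 (Eya4) around Ctgf and from -3.12 (Gbp2) to 4.75 (Unc5c) around Cyr61. Each region thus held genes that rose more than the member itself. Around Ctgf 8 of 33 were called higher and 10 lower, and the tested genes next to it, Stx7 and Enpp1, had log2 fold changes of -0.017 and 1.44. Around Cyr61 15 of 29 were called higher and 8 lower, and the tested genes next to it, Znhit6 and Ddah1, were at 0.27 and 1.33. Of all genes tested, 32.6% were called higher and 32.6% lower.

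Amotl2 rose less than the other targets. It had 11735 and 12586 normalized read counts in the KO-labelled libraries, against 8210, 8310 and 8903 in the WT-labelled ones, a 1.43-fold difference with no overlap (log2 fold change 0.52, SE 0.042, 95% interval 0.43 to 0.61, limma adjusted p = 5.7e-10). It lies at chr9:102717091-102733418, and its neighbours had a median log2 fold change of -0.11 over 78 genes, with values from -9.66 (Foxl2os) to 2.57 (Nmnat3). The 95% intervals of Amotl2, Cyr61 and Ankrd1 do not overlap one another, while those of Ctgf and Cyr61 overlap.

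**Figure D3:**
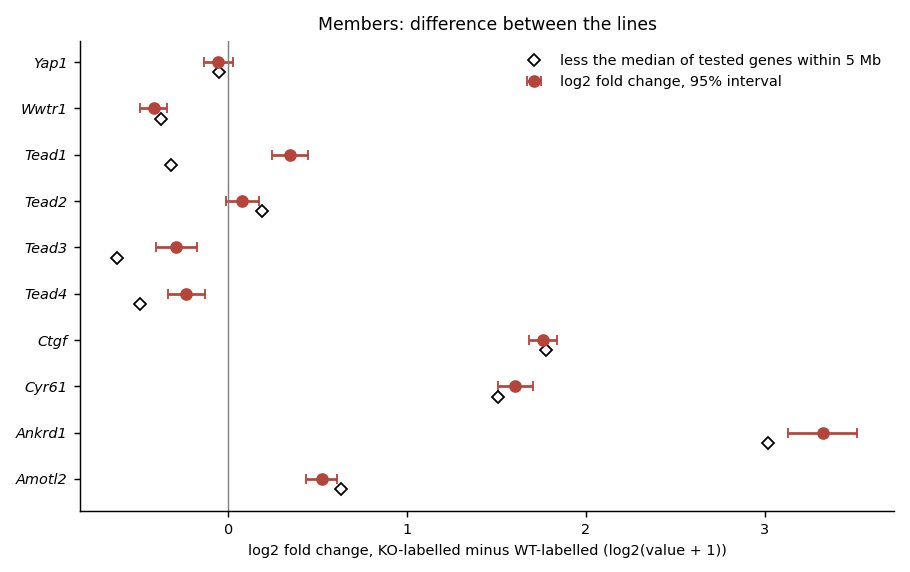
Log2 fold change of each gene, KO-labelled minus WT-labelled, with its 95% interval (red), and the same value less the median of the tested genes within 5 Mb (open diamond). The 4 targets lie to the right by both measures, from 0.52 for Amotl2 to 3.32 for Ankrd1, and Tead1 changes side, from 0.35 to -0.32.

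Summed over the 4 targets, the level was 759 and 742 RPKM in the KO-labelled libraries, against 250, 251 and 266 RPKM in the WT-labelled ones. The order of levels among all 10 genes also differed between the lines. In the KO-labelled libraries Ctgf, Cyr61 and Amotl2 came first, Amotl2 at 78.2 ± 3.16 RPKM, and Ankrd1 stood above Tead4 and Tead3. In the WT-labelled libraries Amotl2, at 54.7 ± 2.44 RPKM, was below Tead2 and Wwtr1 and within the spread of Yap1, and Ankrd1 was last. Cyr61 and Tead2 overlapped there as well. Yap1 and Tead1 were within their spread of each other in the KO-labelled libraries.

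**Figure D4:**
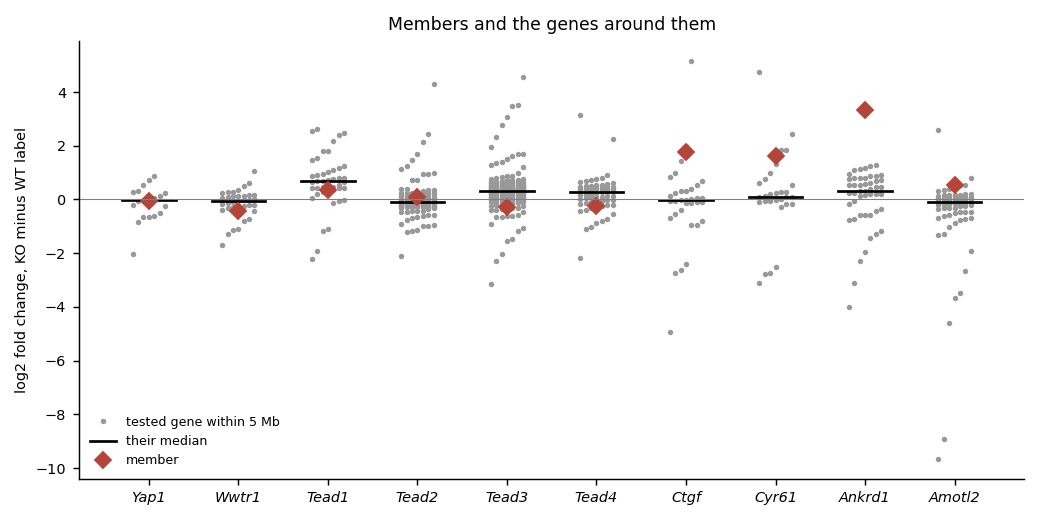
Log2 fold change (vertical axis) of each gene (red diamond) and of the tested genes within 5 Mb of it (grey points, with their median as a line). Ankrd1 stands above all 48 of its neighbours, whereas Tead1 stands below the median of its 44.

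The kinases and adaptors that restrain YAP and TAZ showed no common direction. Of 21 listed genes, all tested, 7 were higher and 8 lower in the KO-labelled libraries (limma), 71.4% called against 65.3% of all genes, with a median log2 fold change of 0.0066 (0.019 without KO-labelled replicate 1, 0.028 without KO-labelled replicate 2 and -0.078 relative to neighbouring genes). Lats1 and Lats2 encode the kinases that phosphorylate YAP directly. Lats1 had 6331 and 6761 normalized read counts in the KO-labelled libraries, against 6955, 6945 and 6899 in the WT-labelled ones, and missed the threshold (limma adjusted p = 0.0670), passing without KO-labelled replicate 2 (0.0097) and with TMM rescaling (0.0495). Lats2, itself a YAP target, fell by 0.18 (limma adjusted p = 0.00064), and did not pass relative to its neighbours (adjusted p = 0.108).

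Frmd6, an upstream FERM protein, had 6337 and 6758 normalized read counts in the KO-labelled libraries, against 10595, 10967 and 10955 in the WT-labelled ones, and fell by 0.73 on the log2 scale. Sav1, the scaffold that joins the upstream kinases to their targets, fell by 0.61, and Map4k4, a kinase that acts in parallel to them, by 0.48. In the other direction Tnik, a relative of Map4k4, had 49.6 and 63.4 in KO-labelled against 3.54, 4.95 and 2.78 in WT-labelled libraries. Its log2 fold change was 3.61, at a low level in both lines (0.207 and 0.0138 RPKM). It passed the filter only through the KO-labelled libraries. Rassf5, of a family that binds the upstream kinases, and Wwc1, the gene of the adaptor KIBRA, rose by 0.53 and 0.51.

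Regulators at cell junctions, polarity proteins and LIM proteins gave 11 higher and 7 lower of 21 (limma), with a median of 0.12. That is 85.7% called, against 65.3% of all genes. Relative to neighbouring genes the split was 6 higher and 11 lower, with a median of -0.10. In that fit 3859 of 12868 genes were higher and 3845 lower. Both remaining angiomotin genes went against Amotl2. Amot had 2858 and 3070 normalized read counts in KO-labelled libraries, against 4462, 4633 and 4557 in WT-labelled ones, and fell by 0.62 (limma adjusted p = 4.6e-11). Amotl1 had 11859 and 12388 in KO-labelled libraries, against 17458, 17295 and 17371 in WT-labelled ones, and fell by 0.52 (limma adjusted p = 4.6e-11). Thus Amotl2 alone of the 3 angiomotin genes rose. Ptpn14, a phosphatase that binds YAP, fell by 0.59. Dchs1, a large cadherin that pairs with FAT4, had 615.6 and 692.8 in KO-labelled against 70.7, 82.1 and 87.9 in WT-labelled libraries, a log2 fold change of 3.02. Pard3, a polarity protein gene, and the atypical cadherin gene Fat1 stood at 0.92 and 0.50 between the lines, but at -0.096 and -0.10 relative to their neighbours.

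Of 14 listed TEAD cofactors and nuclear partners, 12 were tested, with 5 higher and 6 lower (limma). That is 91.7% called, against 65.3% of all genes. Their median was -0.14 (-0.061 without KO-labelled replicate 1 and -0.21 without KO-labelled replicate 2). Relative to neighbouring genes 3 of these cofactors were higher, as were 3859 of the 12868 genes in that fit. Vestigial-like proteins bind the same face of TEAD as YAP. Vgll3 had 5081 and 5393 normalized read counts in KO-labelled libraries, against 2844, 2939 and 2930 in WT-labelled ones, and was 1.80-fold higher (limma adjusted p = 1.7e-13). Vgll4, an antagonist of YAP, had 603.5 and 653.9 in KO-labelled libraries, against 943.1, 914.0 and 975.1 in WT-labelled ones, and fell by 0.59 on the log2 scale (limma adjusted p = 1.7e-07). Vgll1 and Vgll2 had 0 reads in all 5 libraries, which allows up to 3 reads per library (counting error only).

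Srf, the serum response factor, which shares several targets with YAP, had 10962 and 11503 normalized read counts in KO-labelled libraries, against 6404, 6131 and 6320 in WT-labelled ones, and rose by 0.84 (limma adjusted p = 3.9e-14). The genes of its myocardin-related cofactors split: Mkl1 fell by 0.44 and Mkl2 rose by 0.23. The coactivator gene Ncoa1 fell by 0.49.

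The other genes of a published YAP and TAZ target signature did not follow Ctgf, Cyr61 and Ankrd1. Of 18, all tested, 4 were higher and 11 lower in the KO-labelled libraries (limma), 83.3% called, with a median log2 fold change of -0.18 (-0.12 without KO-labelled replicate 1 and -0.070 relative to neighbouring genes). By comparison 32.6% of all genes were called lower. Lats2 and Ptpn14 stand both here and among the regulators above. Gadd45a, a stress-response gene, had 103.5 and 81.2 normalized read counts in KO-labelled libraries, against 38.9, 39.6 and 46.3 in WT-labelled ones. Tgfb2, a TGF-beta ligand gene, had 288.5 and 372.5 in KO-labelled libraries, against 131.7, 148.4 and 172.1 in WT-labelled ones. Both rose, by 1.13 and 1.12 on the log2 scale, at low levels, and the kinase gene Nuak2 rose by 0.45. The largest fall among the 18 was that of Igfbp3, which binds insulin-like growth factors, at 116.7 and 121.2 in KO-labelled against 4275, 4598 and 4619 in WT-labelled libraries (log2 fold change -5.23). The secreted protein gene Ccdc80 fell by 0.65. Axl, a receptor tyrosine kinase gene and a common YAP readout, did not pass, at 51699 and 52340 normalized read counts on average in KO-labelled and WT-labelled libraries (log2 fold change -0.018).

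**Figure D5:**
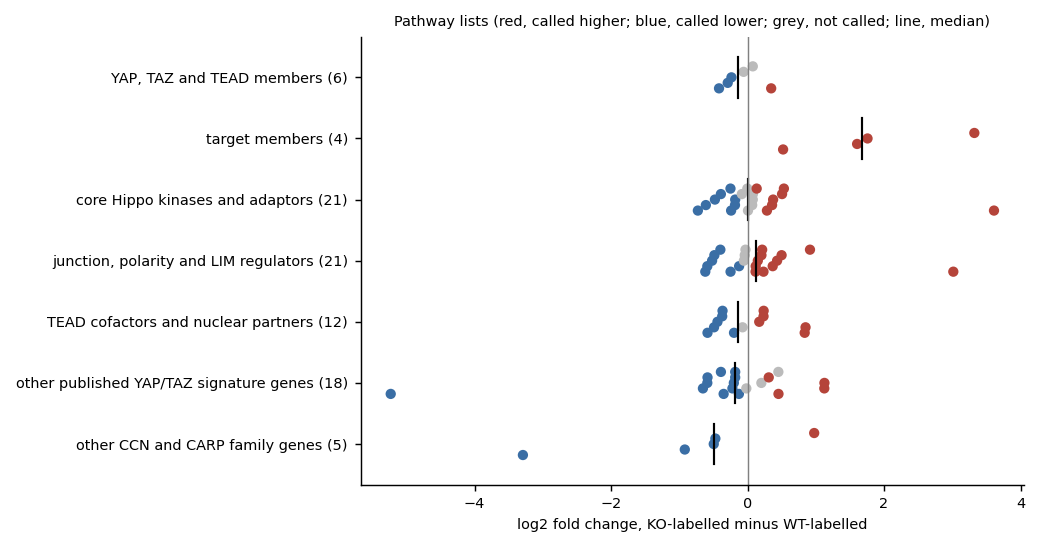
Log2 fold change (horizontal axis) of every tested gene of each list, with the number of genes in brackets; red points were called higher, blue lower, grey not called, and the line is the median. The target members stand to the right, while the other signature genes lie mostly to the left of 0, with Igfbp3 at -5.23.

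Relatives of the target genes did not share one direction either. Of the CCN genes beside Ctgf and Cyr61, Nov had 242.3 and 270.2 normalized read counts in KO-labelled libraries, against 2556, 2452 and 2533 in WT-labelled ones, and was 9.79-fold higher in WT (limma adjusted p = 1.5e-20). Wisp1, a Wnt-inducible member, had 5728 and 5962 in KO-labelled libraries, against 3012, 3064 and 2836 in WT-labelled ones, and was 1.97-fold higher (limma adjusted p = 2.5e-14). Nov and Wisp1 thus lay far apart, each with groups that did not overlap. Wisp2 fell by 0.50 and Wisp3, at 16.5 and 25.6 in KO-labelled against 43.3, 36.6 and 39.8 in WT-labelled libraries, by 0.92, a call lost without KO-labelled replicate 1 (adjusted p = 0.0912), with DESeq2 (0.0954) and in the authors' deposited table (0.0652). Of the ankyrin repeat relatives of Ankrd1, Ankrd2 was under the filter, with 1.10 and 6.67 in KO-labelled against 9.72, 6.92 and 7.40 in WT-labelled libraries. Ankrd23 had 109.0 and 121.2 in KO-labelled libraries, against 168.8, 160.3 and 150.8 in WT-labelled ones, and fell by 0.47 (limma adjusted p = 0.0075). That call was lost without KO-labelled replicate 1 (0.0577), with DESeq2 (0.0874) and relative to neighbouring genes (0.153). Of the 5 tested relatives other than Ctgf, Cyr61 and Ankrd1 themselves, 1 was higher and 4 lower, 100% called against 65.3% of all genes, and 2 were lower without KO-labelled replicate 1 and with DESeq2.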

How the data were processed

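Per the labels' protocols, RNA was captured by poly-T and read on a NextSeq after Nextera XT preparation. STAR, DESeq2 and mm10 appear in the submitters' processing notes, while the counter, annotation and strand setting were not given in the sources used here. Each library's deposited signal column behaves as reads scaled by 1 factor: 100% of its values were whole multiples of a single step, within 0.1 reads. Per the file headers the authors also deposited RPKM values and their own comparison: log2 fold changes, their errors, a Wald score and p-values.

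Because these are not raw counts, the test was limma 3.58.1 (R 4.3.3, trended prior) on log2(value + 1), with genotype alone in the model. It covered the 13062 genes that reached 10 in at least 2 of 5 libraries, with Benjamini-Hochberg adjustment over all 13062. This scale understates the fold of low genes. The test was tried on simulated counts. Reads of WT-labelled replicate 2 were left out of count tests, because its step of 0.9892 was near 1, though its values were whole multiples too. On the reads of the other 4 libraries, edgeR 4.0.16 called 4147 genes higher and 3956 lower. DESeq2 was run on the same 4 libraries. Positions came from the RefSeq gene table of GRCm38.p6, for 12960 tested genes. "Relative to neighbours" subtracts the median of other tested genes within 5 Mb from the KO-labelled values before the fit. The members and lists were chosen with earlier results of these data known. Besides the 10 members, the genes named are family relatives, Lats1 and Lats2, Sirt3, and of each list up to 3 called genes per direction with the largest differences and no overlap between groups, of which 1 is not reported here; Axl, Mkl2, Acta2, Rn45s, the named markers and the genes adjacent to members were named after their values were seen.

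The alternatives tried were rescaling (TMM, median ratio), filters (none, mean at least 50), a pseudocount of 0.5 or 5, each library left out, a replicate block, edgeR, DESeq2 1.42.0, the authors' comparison, the RPKM scale (pseudocount 0.1), the local median, and a threshold of 0.01. Intervals cover the spread between libraries only.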

Additional observations from a re-analysis of the deposited data

How the results depend on the processing

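The calls of Ctgf, Cyr61, Ankrd1, Amotl2, Wwtr1, Tead3 and Tead4 kept their direction and their side of the threshold in all 18 alternatives, with log2 fold changes of 1.72 to 1.80, 1.51 to 1.66, 3.02 to 3.40, 0.47 to 0.63, -0.42 to -0.37, -0.62 to -0.26 and -0.50 to -0.19. With each value taken relative to the genes within 5 Mb, Tead1 reversed to -0.32, Pard3 to -0.096 and Fat1 to -0.10. In that fit the junction list gave 6 higher and 11 lower, and 3 TEAD cofactors were higher. Whether the region or the gene itself accounts for these differences was not tested. The difference in the Tead2 share ranged from -0.88 to 0.45 percentage points with single libraries left out, around -0.32. Replicate numbers are shared between the groups, and same-numbered libraries did not deviate together over the tested genes (correlations of -0.0097 and -0.0050). The 2 KO-labelled libraries deviate from their mean as mirror images, so this cannot show whether the numbers mark shared batches. With a replicate block 5 of the 10 genes were higher and 3 lower, as without it. Of all genes, 3958 were higher and 3947 lower with that block. With DESeq2 the 10 genes also gave 5 higher and 3 lower, and all genes 3537 and 3428. Fits that leave out a KO-labelled library rest on 1 such library, assumed to vary like the WT-labelled ones. Depth limits statements on Tnik, Nkx2-5, Wisp3, Ankrd2 and Gadd45a, which had few reads.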
